A study of Mus musculus with 20 samples.

Results

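Periostin (Postn), cartilage intermediate layer protein (Cilp), tenascin C (Tnc), osteopontin (Spp1), fibronectin (Fn1), Sparc, Wisp1, Wisp2, angiopoietin-like 7 (Angptl7) and fibroblast activation protein (Fap) were followed across mouse hearts under pressure overload. These 10 genes, taken by symbol from the 23284 genes of each heart's table, are matricellular genes of activated fibroblasts, and each symbol was found in all 20 hearts. The hearts came from C57BL/6 mice, 2 hearts in each of 10 groups, and each heart is named here by the number in its label. CKO hearts carried the Wnt5a floxed alleles together with the Myh6-Cre/Esr 1 transgene, and control hearts carried the Wnt5a floxed alleles, so both genotypes share the floxed gene. CKO hearts were taken when tamoxifen treatment ended (hearts 21 and 24), after transverse aortic constriction (TAC) of 2 weeks (13 and 31) or 4 weeks (3 and 41), and after a sham operation at 2 weeks (14 and 15) or 4 weeks (4 and 8). Control hearts were taken at the end of tamoxifen treatment (22 and 23), after TAC of 2 weeks (11 and 32) or 4 weeks (1 and 2), and after sham at 2 weeks (12 and 16) or 4 weeks (6 and 7). The Myh6 promoter is active in cardiac muscle cells, and fibroblasts, the main source of several of these proteins, do not use it. Age and sex are not given in the sources used here, nor is whether control hearts after sham or TAC had received tamoxifen. Between those hearts and CKO hearts, genotype and tamoxifen cannot be told apart. The groups set the CKO genotype, with floxed alleles of Wnt5a, a secreted Wnt ligand, against pressure overload. Only CKO hearts carried the transgene, so a lower Wnt5a and the transgene itself cannot be told apart.

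Matricellular proteins are secreted into the matrix between cells, where they bind integrins, growth factors and collagen and act on cells more than as a scaffold. In the healthy adult heart most of them are low, and fibroblasts that become activated by overload or injury make them. In TAC a band narrows the aorta, and the left ventricle pumps against a raised pressure. Messenger RNA was measured in pieces of whole tissue, in which fewer cells of a type and less RNA per cell cannot be told apart.

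Values are FPKM, fragments per length of transcript and per total of mapped fragments, so that levels of different genes can be compared. Differences are log2 differences of FPKM + 0.5 with their standard error (SE) from limma, a linear model fitted over 12589 genes, and a gene was called at a Benjamini-Hochberg adjusted p under 0.05. On that scale the change of a low gene is understated. FPKM summed to between 579596 and 713671 per heart, the relative depth of the hearts ran from 0.89 to 1.22, and no pair of tables was identical. The absolute depth is not given, so no counting error stands beside the values. Wnt5a was 0.853 to 1.57 FPKM in CKO TAC hearts and 1.58 to 2.06 FPKM in control TAC hearts, and 1.76 to 2.14 FPKM in CKO sham hearts and 2.55 to 4.11 FPKM in control sham hearts. Esr1, part of the transgene's name, was 197 to 931 FPKM in the 10 CKO hearts and 0.101 to 0.465 FPKM in the 10 control hearts. Myl7, a gene of atrial muscle, reached 10 FPKM or more in 5 hearts: 372 FPKM in heart 14 (CKO sham), 323 and 50.6 FPKM in hearts 21 and 24 (CKO, tamoxifen end), 72.6 FPKM in heart 11 (control TAC, 2 weeks) and 32.2 FPKM in heart 16 (control sham, 2 weeks). Its part in the results was not tested beyond fits without these 5 hearts.

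All of the 10 genes reached the minimum mean of 0.5 FPKM over the 20 hearts. Tnc and Wisp1 did so only through their TAC hearts, with means of 0.314 and 0.362 FPKM over the 12 hearts without TAC, so where a count of calls includes either of them it is given also for the other 8 genes, and none is read as more than a description. The fibroblast markers Dcn, Pdgfra and Tcf21 were present in every heart, at 346 to 767, 6.2 to 15.1 and 5.96 to 17.1 FPKM. The macrophage markers Csf1r and Cd68, the markers of another source of Spp1 and Fn1, were present in every heart too, at 14.2 to 31.0 and 5.0 to 22.9 FPKM. A bulk library does not tell which cells a transcript came from, so the name of the group of genes rests on background knowledge.

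The genes lie apart in the genome. In mm10 with GENCODE M21 the plus-strand genes are Postn at chr3:54361109-54391037, Cilp at chr9:65265180-65280605, Spp1 at chr5:104435118-104441050, Wisp1 (Ccn4 in the annotation) at chr15:66891320-66923201 and Wisp2 (Ccn5) at chr2:163820861-163833146. The minus-strand genes are Tnc at chr4:63959785-64047015, Fn1 at chr1:71585520-71653200, Sparc at chr11:55394500-55423183, Angptl7 at chr4:148495183-148500460 and Fap at chr2:62500943-62574075.

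Postn, Cilp, Spp1 and Angptl7 are the genes whose TAC response differed most between the genotypes over both times and at 4 weeks, and their promoters are printed for that reason. RefSeq promoter windows (GRCm38.p6, 250 bases before to 50 after a start) were matched for 6 of the 10 genes with 9 starts: Postn, Cilp, Tnc, Spp1, Sparc and Angptl7. The windows are chr3:54360857-54361156 on the plus strand for Postn, chr9:65264930-65265229 on the plus strand for Cilp, chr5:104434861-104435160 on the plus strand for Spp1 and chr4:148500413-148500712 on the minus strand for Angptl7. Capitals mark exact matches to TATAAA, letters of a TATA box. Variants of these letters, such as tatataag in the Cilp window, were not searched for and are not marked.
Postn: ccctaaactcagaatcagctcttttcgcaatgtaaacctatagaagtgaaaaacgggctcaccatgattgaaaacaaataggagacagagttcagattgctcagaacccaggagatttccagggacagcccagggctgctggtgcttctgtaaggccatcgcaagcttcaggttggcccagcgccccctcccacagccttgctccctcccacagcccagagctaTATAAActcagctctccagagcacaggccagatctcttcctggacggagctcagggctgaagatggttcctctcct
Cilp: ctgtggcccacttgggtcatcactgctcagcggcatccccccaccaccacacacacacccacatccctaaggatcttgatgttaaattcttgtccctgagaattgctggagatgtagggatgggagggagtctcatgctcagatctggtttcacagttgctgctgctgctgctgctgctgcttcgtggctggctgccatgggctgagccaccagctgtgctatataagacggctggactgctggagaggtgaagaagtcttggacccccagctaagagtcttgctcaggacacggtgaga
Spp1: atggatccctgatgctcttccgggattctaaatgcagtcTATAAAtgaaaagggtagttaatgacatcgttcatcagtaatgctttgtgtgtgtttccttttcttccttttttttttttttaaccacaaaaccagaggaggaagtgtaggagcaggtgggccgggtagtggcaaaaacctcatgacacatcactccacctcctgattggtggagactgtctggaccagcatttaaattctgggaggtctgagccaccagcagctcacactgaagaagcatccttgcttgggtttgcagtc
Angptl7: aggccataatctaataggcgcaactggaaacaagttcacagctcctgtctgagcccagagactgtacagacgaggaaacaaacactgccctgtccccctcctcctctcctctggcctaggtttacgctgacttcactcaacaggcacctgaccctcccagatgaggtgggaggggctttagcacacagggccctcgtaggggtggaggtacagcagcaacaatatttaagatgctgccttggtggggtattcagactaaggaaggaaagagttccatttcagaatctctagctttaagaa

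On both strands, TATAAA was found in the printed Postn window, 26 bases before the start, in both overlapping Tnc windows, and in the printed Spp1 window, 211 bases before the start. Of all 32851 RefSeq promoter windows, 13.6% hold it. GGAATG, bound by TEAD factors, is held by 14.7% of all windows, and TGANTCA, bound by AP-1 factors, by 7.81%; neither was found in any of the 9 windows. These matches are descriptions of the letters in a window and no sign of binding.

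Postn codes for a secreted protein that helps to assemble collagen and is a standard marker of activated heart fibroblasts. Postn was 172 and 225 FPKM in CKO TAC hearts at 2 weeks and 44.6 and 23.5 FPKM at 4 weeks, against 358 and 413 FPKM in control TAC hearts at 2 weeks and 128 and 119 FPKM at 4 weeks. Without TAC it was 18.8 to 25.6 FPKM in 6 CKO hearts and 10.9 to 22.6 FPKM in 6 control hearts. The CKO and control TAC hearts did not overlap at either time, and CKO heart 41 at 4 weeks lay within the range of the CKO hearts without TAC. By group mean the order was control TAC at 2 weeks, CKO TAC at 2 weeks, control TAC at 4 weeks and CKO TAC at 4 weeks, with no overlap between neighbours. With both times weighted equally, the log2 difference of TAC from sham was 1.93 ± 0.17 in CKO hearts (limma adjusted p = 9.6e-05) and 3.74 ± 0.17 in control hearts (adjusted p = 3.2e-08). The CKO response was smaller by a log2 difference of -1.81 ± 0.23 (adjusted p = 0.0029).

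Cilp codes for a matrix protein first described in cartilage. Cilp was 20.4 and 16.8 FPKM in CKO TAC hearts at 2 weeks and 8.23 and 5.48 FPKM at 4 weeks, against 63.6 and 58.2 FPKM in control TAC hearts at 2 weeks and 32.4 and 57.9 FPKM at 4 weeks. Hearts without TAC held 2.34 to 4.58 FPKM in CKO and 0.840 to 3.84 FPKM in control. All 8 TAC hearts lay above all 12 hearts without TAC, and each of the 4 CKO TAC hearts lay below each of the 4 control TAC hearts. The response to TAC was a log2 difference of 1.75 ± 0.27 in CKO hearts (adjusted p = 0.0022) and 4.27 ± 0.27 in control hearts (adjusted p = 2.0e-07), and the CKO response was smaller by -2.52 ± 0.39 (adjusted p = 0.0061). Ordered from the largest rise to the largest fall with TAC in control hearts, Cilp ranked 6 among all 12589 genes tested, and Postn ranked 8.

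Fn1 codes for fibronectin, an adhesive glycoprotein that integrins bind and on which collagen is laid down. Fn1 was 21.7 and 24.1 FPKM in CKO TAC hearts at 2 weeks and 5.64 and 6.12 FPKM at 4 weeks, against 25.3 and 29.5 FPKM in control TAC hearts at 2 weeks and 9.34 and 12.4 FPKM at 4 weeks. In hearts without TAC it ran from 5.21 to 8.89 FPKM in CKO and 4.62 to 7.38 FPKM in control. At 2 weeks all 4 TAC hearts stood above every heart without TAC, and at 4 weeks the CKO TAC hearts lay inside the range of hearts without TAC while the control TAC hearts lay above it. The log2 difference of TAC from sham over both times was 0.73 ± 0.12 in CKO hearts (adjusted p = 0.0036) and 1.58 ± 0.12 in control hearts (adjusted p = 1.4e-06), a difference between genotypes of -0.84 ± 0.18 (adjusted p = 0.034). This difference was no longer called when any 1 of 10 of the 20 hearts was left out.

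Sparc, a collagen-binding glycoprotein that takes part in the maturation of collagen fibres, was by far the most abundant of the 10 genes. Its level was 732 and 781 FPKM in CKO TAC hearts at 2 weeks and 254 and 266 FPKM at 4 weeks, against 771 and 708 FPKM in control TAC hearts at 2 weeks and 390 and 442 FPKM at 4 weeks. The hearts without TAC had 243 to 284 FPKM in CKO and 163 to 244 FPKM in control. The genotypes overlapped under TAC at 2 weeks and did not at 4 weeks, when the CKO TAC hearts lay within the range of the CKO hearts without TAC. Over both times the TAC response was 0.79 ± 0.10 in CKO hearts (adjusted p = 8.2e-04) and 1.44 ± 0.10 in control hearts (adjusted p = 5.1e-07), differing by -0.65 ± 0.14 (adjusted p = 0.045). This last call lay close to the threshold and was lost when any 1 of 18 of the 20 hearts was left out.

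Tnc codes for tenascin C, an anti-adhesive matrix protein that is nearly absent from the resting adult heart. Tnc was 0.901 and 3.29 FPKM in CKO TAC hearts at 2 weeks and 0.559 and 0.690 FPKM at 4 weeks, against 1.71 and 3.87 FPKM in control TAC hearts at 2 weeks and 0.656 and 0.970 FPKM at 4 weeks. Without TAC the level was 0.107 to 0.487 FPKM in CKO and 0.180 to 0.497 FPKM in control. All TAC hearts stood above all hearts without TAC, and the 2 hearts of a TAC group at 2 weeks lay far apart in both genotypes. The TAC response was 0.92 ± 0.29 in CKO hearts (adjusted p = 0.065) and 1.37 ± 0.29 in control hearts (adjusted p = 0.0029), and the difference between them, -0.45 ± 0.41, did not pass (adjusted p = 0.71).

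Spp1 codes for osteopontin, a secreted phosphoprotein that binds integrins and CD44 and is made by macrophages as well as fibroblasts. Spp1 was 1.38 and 2.07 FPKM in CKO TAC hearts at 2 weeks and 0.367 and 0.336 FPKM at 4 weeks, against 8.97 and 6.38 FPKM in control TAC hearts at 2 weeks and 6.44 and 7.21 FPKM at 4 weeks. Hearts without TAC ran from a listed 0 in heart 4 to 1.2 FPKM in CKO and 0.0993 to 1.58 FPKM in control. Every control TAC heart stood above every other heart, and the CKO TAC hearts at 4 weeks lay inside the range without TAC. The TAC response was 0.51 ± 0.34 in CKO hearts (adjusted p = 0.37) and 2.87 ± 0.34 in control hearts (adjusted p = 4.0e-05), differing by -2.36 ± 0.49 (adjusted p = 0.033). With a pseudocount of 0.1 FPKM that difference was -2.79 and no longer passed, nor did it pass when any 1 of 11 of the 20 hearts was left out.

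The CCN proteins Wisp1 and Wisp2 are secreted modulators of growth factor and integrin signals that were named as Wnt1-induced genes. Wisp2 was 8.84 and 8.79 FPKM in CKO TAC hearts at 2 weeks and 7.95 and 10.4 FPKM at 4 weeks, against 24.2 and 18.6 FPKM in control TAC hearts at 2 weeks and 24.2 and 10.7 FPKM at 4 weeks. Without TAC it was 3.20 to 10.9 FPKM in CKO hearts and 2.78 to 8.54 FPKM in control hearts. The 4 CKO TAC hearts lay below the 4 control TAC hearts and above the 4 CKO sham hearts, which held 3.20 to 6.57 FPKM. They lay within the range of all CKO hearts without TAC only through heart 24 (tamoxifen end) at 10.9 FPKM. Wisp2 rose by 1.97 ± 0.30 with TAC in control hearts (adjusted p = 2.6e-04), against 0.69 ± 0.30 in CKO hearts (adjusted p = 0.16), and the difference of -1.27 ± 0.42 did not pass (adjusted p = 0.19). Wisp1 was lower in level, at 1.09 and 0.757 FPKM in CKO TAC hearts at 2 weeks and 0.493 and 0.311 FPKM at 4 weeks, against 1.29 and 1.08 FPKM in control TAC hearts at 2 weeks and 0.796 and 0.784 FPKM at 4 weeks. Hearts without TAC held 0.232 to 0.493 FPKM in CKO and 0.177 to 0.496 FPKM in control, so the control TAC hearts and the CKO TAC hearts at 2 weeks stood above them, and the CKO TAC hearts at 4 weeks did not. The Wisp1 response was 0.37 ± 0.16 in CKO hearts (adjusted p = 0.17) and 0.73 ± 0.16 in control hearts (adjusted p = 0.0040), and the difference of -0.36 ± 0.23 did not pass (adjusted p = 0.55).

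Angptl7, a secreted angiopoietin-like protein best known from the drainage tissue of the eye, was highest in the control TAC groups. It was 1.22 and 0.860 FPKM in CKO TAC hearts at 2 weeks and 0.560 and 0.660 FPKM at 4 weeks, against 6.24 and 4.93 FPKM in control TAC hearts at 2 weeks and 3.99 and 4.71 FPKM at 4 weeks. Hearts without TAC held 0.213 to 2.25 FPKM in CKO and 0.195 to 1.40 FPKM in control. Only the control TAC hearts left the range without TAC, and the CKO TAC hearts at 4 weeks were below the CKO sham hearts of that time, which held 1.28 and 2.13 FPKM. The TAC response was -0.19 ± 0.24 in CKO hearts (adjusted p = 0.67) and 2.28 ± 0.24 in control hearts (adjusted p = 1.5e-05), and it differed by -2.47 ± 0.34 (adjusted p = 0.0034).

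Fap codes for a serine protease on the surface of activated fibroblasts that cleaves after proline. Fap was 2.79 and 2.93 FPKM in CKO TAC hearts at 2 weeks and 1.01 and 1.59 FPKM at 4 weeks, against 3.76 and 2.96 FPKM in control TAC hearts at 2 weeks and 1.82 and 2.26 FPKM at 4 weeks. Without TAC the range was 1.32 to 2.33 FPKM in CKO and 0.833 to 2.03 FPKM in control. The TAC hearts at 2 weeks lay above all hearts without TAC in both genotypes, and those at 4 weeks overlapped with them. Fap differed between TAC and sham by 0.22 ± 0.22 in CKO hearts (adjusted p = 0.57) and rose by 0.87 ± 0.22 in control hearts (adjusted p = 0.0083), and the difference of -0.65 ± 0.31 did not pass (adjusted p = 0.39).

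**Figure D1:**
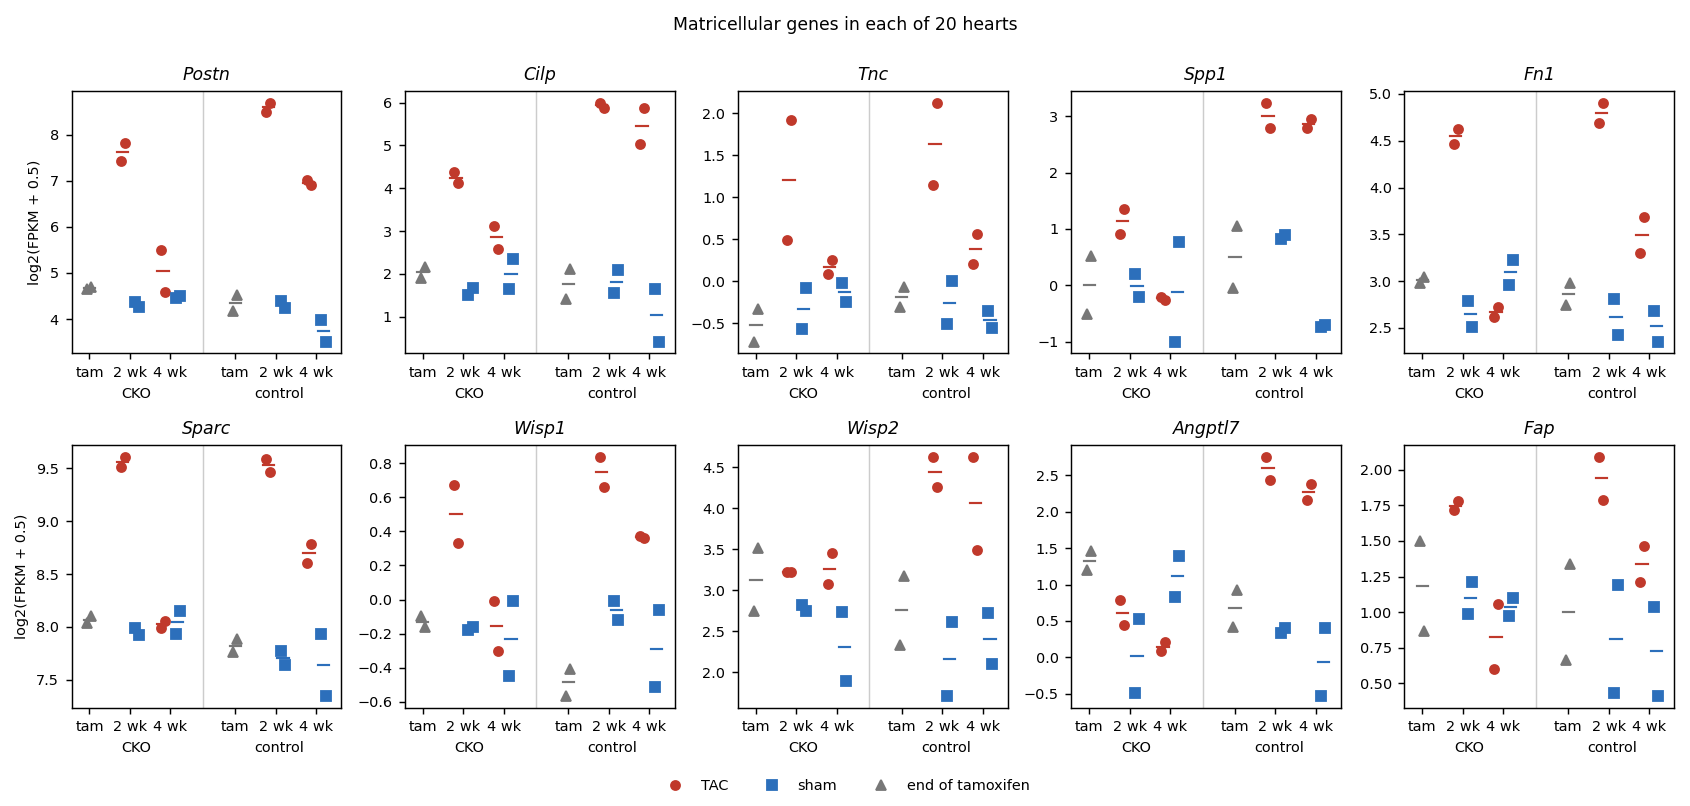
Log2 of FPKM + 0.5 of each of the 10 genes, 1 panel a gene with its own scale, 1 point a heart and a dash for the mean of 2 hearts, with CKO on the left and control on the right of a panel and tam standing for the hearts taken when tamoxifen ended. Control TAC hearts (red circles, right) stand above all other hearts for Cilp, Spp1 and Angptl7, while Sparc in TAC hearts at 2 weeks overlaps between CKO and control hearts, at 708 to 781 FPKM.

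CKO hearts showed a response at 2 weeks and no called response at 4 weeks. Over both times Postn, Cilp, Fn1 and Sparc rose, 4 of the 10 genes, against a background of 4.23% of all genes called higher and 4.89% called lower, with a median log2 difference of 0.71 over the 10 and 0.01 over all genes. At 2 weeks 5 rose, 4 without Tnc (background 10% higher and 9.21% lower): Postn at 3.30 ± 0.23 (adjusted p = 1.4e-05), Cilp at 2.66 ± 0.39 (adjusted p = 8.8e-04), Fn1 at 1.89 ± 0.18 (adjusted p = 5.1e-05), Sparc at 1.61 ± 0.14 (adjusted p = 4.5e-05) and Tnc at 1.53 ± 0.41 (adjusted p = 0.020). The other 5 had log2 differences between 0.43 for Wisp2 and 1.14 for Spp1, and adjusted p between 0.057 and 0.51. The call of Tnc was lost without heart 14, 15 or 31 and without the hearts high in Myl7, and its value without single hearts ran from 0.81 to 2.25. At 4 weeks 0 of the 10 were called by limma, with 5 at an unadjusted p under 0.05 (Postn, Cilp and Wisp2 higher, Fn1 and Angptl7 lower), and the background was 0.151% called higher and 0.111% called lower. Those values ran from -0.97 ± 0.34 for Angptl7 (adjusted p = 0.25) to 0.95 ± 0.42 for Wisp2 (adjusted p = 0.37), with Postn at 0.56 ± 0.23 (adjusted p = 0.34) and Sparc at -0.02 ± 0.14 (adjusted p = 0.98).

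In control hearts most of the 10 genes rose at 2 and at 4 weeks of TAC. Over both times 10 of the 10 genes rose with TAC in control hearts, against a background of 15.3% of all genes called higher and 16.1% called lower, and 8 of the 8 that pass the minimum without TAC hearts. The median log2 difference of the 10 was 1.77, against 0.00 for all genes. Wisp1, the smallest over both times at 0.73, was 0.66 in the smaller fit without the hearts high in Myl7. At 2 weeks 10 rose (background 11.0% higher and 12.8% lower), 8 of those 8 among them, from Wisp1 at 0.81 ± 0.23 (adjusted p = 0.021) to Postn at 4.27 ± 0.23 (adjusted p = 2.8e-07). At 4 weeks 7 rose (background 6.36% higher and 6.37% lower), led by Cilp at 4.42 ± 0.39 (adjusted p = 2.7e-05), Spp1 at 3.59 ± 0.49 (adjusted p = 5.3e-04) and Postn at 3.21 ± 0.23 (adjusted p = 1.2e-05). The remaining 3 at 4 weeks were Tnc at 0.84 ± 0.41 (adjusted p = 0.20), Wisp1 at 0.66 ± 0.23 (adjusted p = 0.080) and Fap at 0.61 ± 0.31 (adjusted p = 0.22). With a pseudocount of 0.1 FPKM the 2-week calls of Spp1 (limma adjusted p = 0.059) and Wisp1 (adjusted p = 0.051) were lost. With only the compared groups in the fit, those of Fap (adjusted p = 0.059) and Wisp1 (adjusted p = 0.072) were lost. Without the hearts high in Myl7, hearts 32 and 12 alone stand for 2 weeks of TAC and sham. The 2-week values were then 1.96 for Spp1, 1.36 for Fap and 0.67 for Wisp1, against 2.15, 1.13 and 0.81 in the main fit. The 2-week call of Wisp1 was lost without any 1 of its 4 hearts, that of Fap without heart 11 or 12 and that of Tnc without heart 32. In all, 8 to 10 genes were called without single hearts. The 4-week call of Wisp2 was lost without heart 1 or 7. No call in CKO hearts beside a call in control hearts is not by itself a difference, which is given by the test of the responses against each other.

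**Figure D2:**
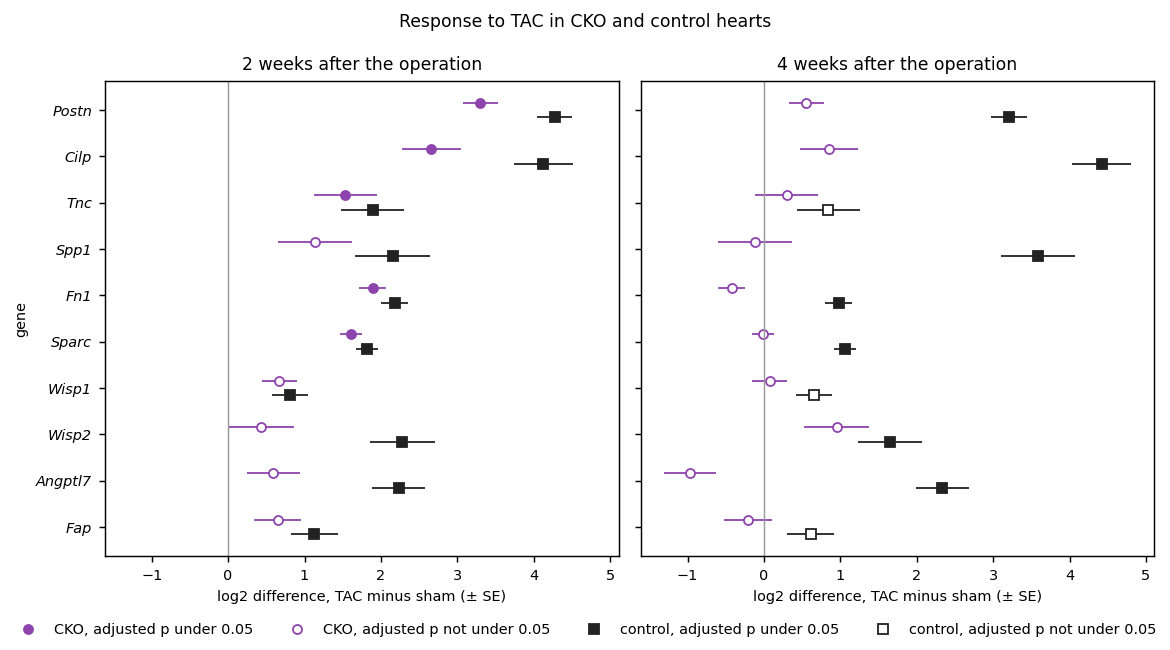
Log2 difference of TAC from sham for each gene (points, bars are ± SE), in CKO (circles) and control hearts (squares), at 2 weeks on the left and 4 weeks on the right, filled where called. In CKO hearts at 4 weeks the values lie between -0.97 and 0.95, and in control hearts they run up to 4.42 for Cilp.

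The TAC responses themselves differed between the genotypes for 6 of the 10 genes. Over both times Cilp, Angptl7, Spp1, Postn, Fn1 and Sparc had a smaller response in CKO hearts, against a background of 0.913% of all genes called lower and 0.334% higher, and the values of all 10 genes were negative, from -0.36 for Wisp1 to -2.52 for Cilp. At 4 weeks the same number passed (background 0.540% lower and 0.207% higher): Spp1 at -3.71 ± 0.69 (adjusted p = 0.024), Cilp at -3.57 ± 0.54 (adjusted p = 0.0096), Angptl7 at -3.30 ± 0.49 (adjusted p = 0.0082), Postn at -2.65 ± 0.33 (adjusted p = 0.0070), Fn1 at -1.40 ± 0.25 (adjusted p = 0.021) and Sparc at -1.07 ± 0.20 (adjusted p = 0.028). A difference of responses also holds the difference between the sham hearts. For all 6 genes the mean of CKO sham hearts at 4 weeks was above that of control sham hearts. In FPKM it was 1.71 against 0.507 for Angptl7, 21.9 against 13.1 for Postn and 3.62 against 1.73 for Cilp. For Fn1 it was 8.08 against 5.26, for Sparc 264 against 203 and for Spp1 0.60 against 0.107. At 2 weeks 0 of the 10 passed, with 4 at an unadjusted p under 0.05 (Postn, Cilp, Wisp2 and Angptl7) and a background of 0.0159% lower and 0.00% higher. The largest values at 2 weeks were -1.85 ± 0.60 for Wisp2 (adjusted p = 0.47), -1.64 ± 0.49 for Angptl7 (adjusted p = 0.39) and -1.47 ± 0.54 for Cilp (adjusted p = 0.54). None of the 5 hearts high in Myl7 was taken at 4 weeks. Leaving them out moves no 4-week difference, only its estimated spread and adjusted p. When the 5 hearts high in Myl7 were left out, Angptl7 alone passed over both times, Postn was -1.80 and Cilp -2.66, and at 4 weeks 2 of the 10 passed. With only the compared groups in the fit, 0 passed at 4 weeks. Without single hearts, 3 to 5 passed over both times (3 without heart 2, 13, 14, 16, 32 or 41) and 1 to 6 at 4 weeks (3 without heart 2, 7 or 41 and 1 without heart 8).

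Set directly against each other, CKO TAC hearts were lower than control TAC hearts in 5 genes over both times (background 2.26% lower and 1.19% higher). These were Spp1 at -2.49 ± 0.34 (adjusted p = 0.0016), Cilp at -2.14 ± 0.27 (adjusted p = 8.1e-04), Angptl7 at -2.05 ± 0.24 (adjusted p = 4.9e-04), Postn at -1.44 ± 0.17 (adjusted p = 3.8e-04) and Fn1 at -0.54 ± 0.12 (adjusted p = 0.029). At 2 weeks 1 passed (background 0.318% lower and 0.0953% higher), Angptl7 at -1.98 ± 0.34 (adjusted p = 0.023), while Cilp was -1.69 ± 0.39 (adjusted p = 0.065), Postn -0.97 ± 0.23 (adjusted p = 0.081) and Sparc 0.03 ± 0.14 (adjusted p = 0.96). At 4 weeks 6 passed (background 0.604% lower and 0.230% higher): Spp1 at -3.10 ± 0.49, Cilp at -2.60 ± 0.39, Angptl7 at -2.13 ± 0.34, Postn at -1.91 ± 0.23, Fn1 at -0.82 ± 0.18 and Sparc at -0.67 ± 0.14, with adjusted p between 0.0014 and 0.047. With a pseudocount of 0.1 FPKM Spp1 at 4 weeks was -3.94 and was not called (limma adjusted p = 0.056). The call of Angptl7 at 2 weeks was lost without heart 11, 31 or 32, and at 4 weeks 2 genes passed without heart 1 and 1 without heart 2 or 41. At 4 weeks the calls of Fn1 and Sparc were lost when any 1 of 16 and of 18 of the 20 hearts was left out, and over both times that of Fn1 when any 1 of 6 was.

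In hearts without TAC no member was called between the genotypes. With both times weighted equally, sham CKO and control hearts differed by between -0.13 for Spp1 and 0.42 for Angptl7 in log2. In that contrast 0 of the 10 were called, with 3 at an unadjusted p under 0.05 and a background of 0.00794% higher and 0.00% lower. The 3 were Sparc at 0.33 ± 0.10, Postn at 0.37 ± 0.17 and Fn1 at 0.31 ± 0.12, all on the higher side in CKO. When tamoxifen ended the values lay between -0.50 for Spp1 and 0.65 for Angptl7, with 0 called, 0 at an unadjusted p under 0.05 and a background of 0.00794% in each direction. From the end of tamoxifen to sham, over both genotypes, 0 were called (background 1.88% higher and 1.48% lower), and 1 had an unadjusted p under 0.05, Angptl7 at -0.64 ± 0.21 (adjusted p = 0.11). The genotype contrasts and the TAC contrasts share hearts, so their values for a gene are not independent of each other.

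**Figure D3:**
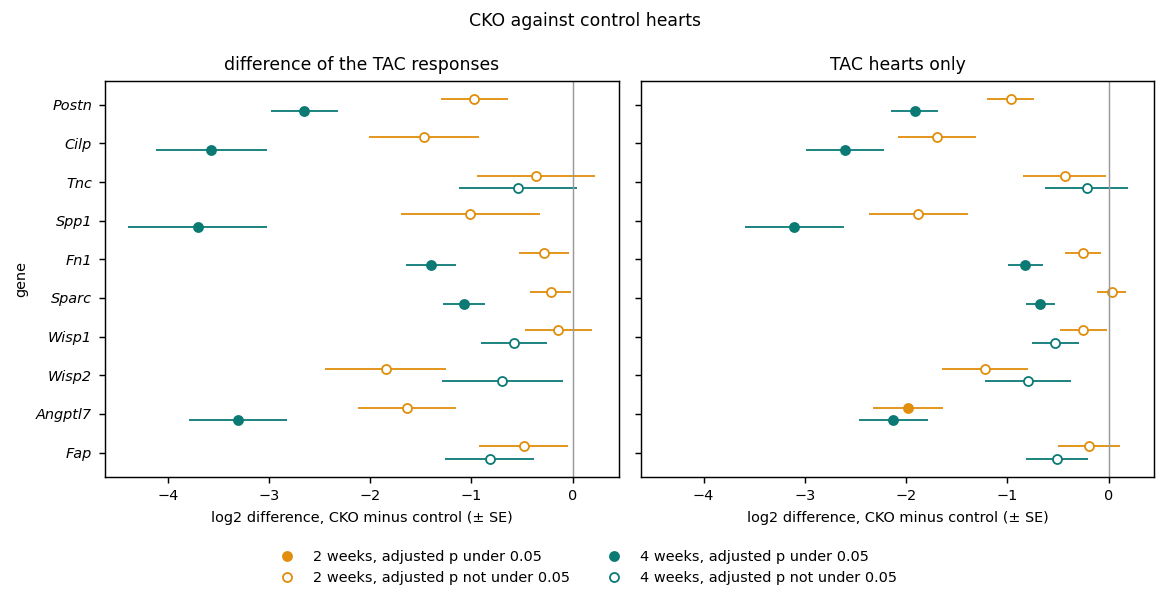
Log2 difference of CKO minus control for each gene (points, bars are ± SE) at 2 weeks (orange) and 4 weeks (green), for the TAC responses on the left and for TAC hearts alone on the right, filled where the adjusted p was under 0.05. At 4 weeks 6 points are filled in each panel, down to -3.71 and -3.10 for Spp1, and at 2 weeks Angptl7 at -1.98 is the 1 filled point.

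With longer TAC Postn, Fn1 and Sparc fell in both genotypes. In CKO hearts 4 were lower at 4 than at 2 weeks (background 7.82% lower and 7.09% higher): Postn by -2.58 ± 0.23 (adjusted p = 8.6e-05), Fn1 by -1.87 ± 0.18 (adjusted p = 8.6e-05), Sparc by -1.54 ± 0.14 (adjusted p = 8.6e-05) and Cilp by -1.40 ± 0.39 (adjusted p = 0.028). In control hearts 3 were lower (background 1.08% in each direction): Postn by -1.64 ± 0.23 (adjusted p = 0.0084), Fn1 by -1.30 ± 0.18 (adjusted p = 0.0070) and Sparc by -0.83 ± 0.14 (adjusted p = 0.018). Spp1 and Angptl7 in control hearts were -0.14 ± 0.49 (adjusted p = 0.92) and -0.32 ± 0.34 (adjusted p = 0.67), and Wisp2 in CKO hearts was 0.04 ± 0.42 (adjusted p = 0.96). The genotypes were not called different in how the genes changed with time: 0 of 10 passed limma (background 0.00794% higher and 0.00% lower), 3 had an unadjusted p under 0.05, and Postn was -0.95 ± 0.33, Sparc -0.71 ± 0.20 and Fn1 -0.57 ± 0.25. The call of Cilp in CKO hearts was lost without any 1 of the 4 CKO TAC hearts, and no control call remained without heart 1 or without heart 32.

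Summed over the 10 genes, FPKM was 962 and 1065 in CKO TAC hearts at 2 weeks and 324 and 315 at 4 weeks, against 1264 and 1247 in control TAC hearts at 2 weeks and 598 and 657 at 4 weeks. Hearts without TAC held 185 to 329. CKO TAC hearts lay below control TAC hearts at both times, and at 4 weeks hearts 3 and 41 lay within the range of the hearts without TAC. Sparc made up 73.3% to 84.4% of the sum in CKO TAC hearts, 56.8% to 67.2% in control TAC hearts and 83.0% to 88.4% in hearts without TAC. Postn made up 7.44% to 21.1% in CKO TAC hearts, 18.1% to 33.1% in control TAC hearts and 5.51% to 8.11% in hearts without TAC.

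**Figure D4:**
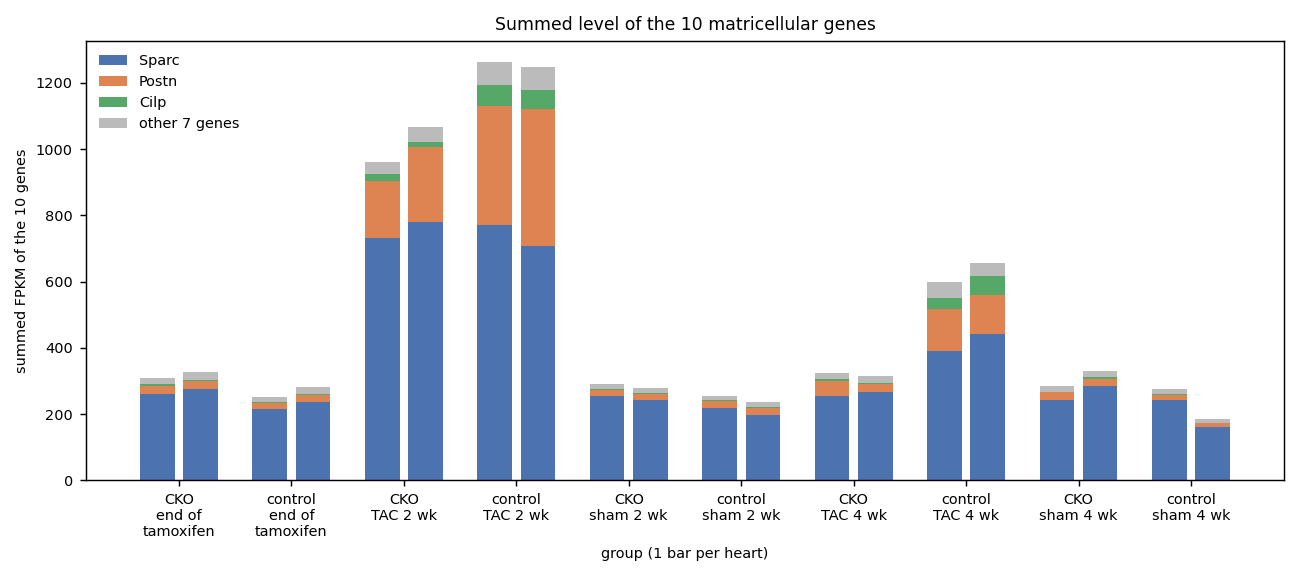
Summed FPKM of the 10 genes, 1 bar a heart, divided into Sparc, Postn, Cilp and the other 7 genes. The control TAC bars at 2 weeks reach 1264 and 1247, and the CKO TAC bars at 4 weeks, 324 and 315, are level with the hearts without TAC.

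The 10 genes varied in more than one way among themselves. For each, the most similar genes were those with the smallest root mean square difference in log2 of FPKM + 0.5, centred on the gene's own mean, over the 20 hearts; these are descriptions with no test, and genes that vary little have small distances. Cilp and Postn were among each other's 3 nearest, at 0.531, and the nearest to Postn were Col8a1 at 0.509 and Mfap5 at 0.510. Fn1 and Sparc were also among each other's nearest, at 0.197, with Ppic at 0.140 closest to Sparc. Spp1 lay nearest to Fmod at 0.599 and Ltbp2 at 0.615, and Angptl7 to Col8a2 at 0.434 and Pdgfrl at 0.487. Wisp2 lay nearest to Prrx2 and Ctsk, both at 0.399, Tnc to Dbn1 at 0.338, Wisp1 to Tspo at 0.182 and Fap to Slc1a3 at 0.190.

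Among other matricellular genes, Thbs4 and Comp had smaller TAC responses in CKO hearts. Of 20 such genes 14 were tested. Over both times 3 rose with TAC in CKO hearts and 7 in control hearts, and 2 had a smaller response in CKO hearts. Thbs4, a thrombospondin of stressed muscle and matrix, had a response of 1.26 ± 0.27 in CKO hearts (adjusted p = 0.012) and 3.36 ± 0.27 in control hearts (adjusted p = 1.4e-06), with a difference of -2.10 ± 0.37 (adjusted p = 0.015). Comp, the cartilage thrombospondin, stood at -0.27 ± 0.32 in CKO hearts (adjusted p = 0.64) and 3.02 ± 0.32 in control hearts (adjusted p = 1.6e-05), with a difference of -3.28 ± 0.46 (adjusted p = 0.0034). Ctgf, a CCN protein like Wisp1 and Wisp2, rose by 1.51 ± 0.28 in CKO hearts (adjusted p = 0.0066) and 2.99 ± 0.28 in control hearts (adjusted p = 6.1e-06), a difference of -1.48 ± 0.40 that did not pass (adjusted p = 0.099). Sparcl1, the relative of Sparc, rose by 0.25 ± 0.06 in CKO hearts (adjusted p = 0.025) and 0.56 ± 0.06 in control hearts (adjusted p = 2.6e-05).

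Some receptors of these proteins rose with TAC. Of 13 receptor genes 12 were tested; over both times 2 rose and 1 fell in CKO hearts, 8 rose and 1 fell in control hearts, and 0 differed in their response by limma. At 2 weeks 5 rose in CKO hearts and 8 in control hearts, with 0 called differences of response. At 4 weeks 0 rose in CKO hearts and 4 in control hearts, with the response of Cd44 called smaller in CKO hearts. Cd44, which binds osteopontin, rose by 0.54 ± 0.11 in CKO hearts (adjusted p = 0.011) and 1.13 ± 0.11 in control hearts (adjusted p = 8.3e-06). Itga9, an integrin chain that binds tenascin C and osteopontin, rose by 0.67 ± 0.10 in CKO hearts (adjusted p = 0.0015) and 0.84 ± 0.10 in control hearts (adjusted p = 2.6e-05). Itgb1, the chain shared by fibronectin receptors, had 0.17 ± 0.06 in CKO hearts (adjusted p = 0.095) and rose by 0.40 ± 0.06 in control hearts (adjusted p = 2.2e-04), and Itgb5 had 0.07 ± 0.06 in CKO hearts (adjusted p = 0.52) and rose by 0.47 ± 0.06 in control hearts (adjusted p = 1.2e-04).

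Of the relatives of Angptl7, Angptl2 had a TAC difference of 0.20 ± 0.09 in CKO hearts (adjusted p = 0.17) and rose by 0.32 ± 0.09 in control hearts (adjusted p = 0.013). Angptl1 had -0.36 ± 0.19 in CKO hearts (adjusted p = 0.25) and fell in control hearts, at -0.57 ± 0.19 (adjusted p = 0.030). Of 7 prolyl peptidases related to Fap 5 were tested, and over both times 0 were called by limma with TAC in either genotype or in the difference. Dpp4 was 0.18 ± 0.14 in CKO hearts (adjusted p = 0.47) and -0.25 ± 0.14 in control hearts (adjusted p = 0.21).

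Collagens, the scaffold on which these proteins act, rose in both genotypes at 2 weeks of TAC. Of 9 genes of fibrillar collagen and its processing 8 rose in CKO hearts and 8 in control hearts at 2 weeks, and 0 in CKO hearts and 4 in control hearts at 4 weeks. Over both times 7 rose in CKO hearts and 8 in control hearts, and 3 had a smaller response in CKO hearts. Col5a2 rose by 0.92 ± 0.10 in CKO hearts (adjusted p = 4.1e-04) and 1.70 ± 0.10 in control hearts (adjusted p = 1.0e-07), with a difference of -0.78 ± 0.14 (adjusted p = 0.014). Col1a2 rose by 0.68 ± 0.14 in CKO hearts (adjusted p = 0.013) and 1.60 ± 0.14 in control hearts (adjusted p = 3.8e-06), with a difference of -0.93 ± 0.20 (adjusted p = 0.044). Lox, which crosslinks collagen, had 0.71 ± 0.24 in CKO hearts (adjusted p = 0.077) and rose by 2.25 ± 0.24 in control hearts (adjusted p = 1.3e-05), with a difference of -1.55 ± 0.33 (adjusted p = 0.040).

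Markers of fibroblasts changed as well, and their part in the results was not tested. Of 11 fibroblast markers 4 rose and 2 fell with TAC in CKO hearts over both times, and 7 rose and 2 fell in control hearts. The response of 4 was smaller in CKO hearts. At 4 weeks 0 were called in CKO hearts, while 3 rose and 2 fell in control hearts. Among all genes, 6.36% were called higher and 6.37% lower in control hearts at that time. Mfap5 rose by 1.18 ± 0.15 in CKO hearts (adjusted p = 9.1e-04) and 2.78 ± 0.15 in control hearts (adjusted p = 9.7e-08), while Scara5 fell in both, at -0.73 ± 0.14 in CKO hearts (adjusted p = 0.0070) and -1.39 ± 0.14 in control hearts (adjusted p = 8.1e-06). The summed FPKM of these 11 was 1192 to 1490 in CKO TAC hearts, 1269 to 1896 in control TAC hearts, 1298 to 1536 in CKO sham hearts and 1315 to 1465 in control sham hearts, so the ranges overlapped, and none of them was at 0 in any heart. Of 6 markers of activated fibroblasts 3 rose with TAC in CKO hearts and 5 in control hearts over both times, and 4 had a smaller response in CKO hearts. Thbs4 is in each of these counts and was also counted above among the other matricellular genes. Ltbp2 rose by 0.93 ± 0.22 in CKO hearts (adjusted p = 0.020) and 3.34 ± 0.22 in control hearts (adjusted p = 2.4e-07), with a difference of -2.41 ± 0.31 (adjusted p = 0.0029). Cthrc1, at 0 in 1 heart, had 0.69 ± 0.25 in CKO hearts (adjusted p = 0.11) and rose by 2.82 ± 0.25 in control hearts (adjusted p = 3.9e-06), with a difference of -2.13 ± 0.36 (adjusted p = 0.012). The summed FPKM of the 6 was 106 to 150 in CKO TAC hearts, 127 to 190 in control TAC hearts, 97.6 to 163 in CKO sham hearts and 44.5 to 269 in control sham hearts, a sum in which Acta2, also a smooth muscle gene, is 31.2 to 258 FPKM.

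Macrophages are another known source of Spp1, and their part in its result was not tested. Of 16 macrophage markers tested 2 rose in CKO hearts and 9 in control hearts over both times, 7 in CKO hearts and 3 in control hearts at 2 weeks, and 0 in CKO hearts and 6 in control hearts at 4 weeks. The responses were called different for 0 of the 16 over both times, at 2 weeks and at 4 weeks. Trem2 rose by 0.77 ± 0.21 in CKO hearts (adjusted p = 0.037) and 2.07 ± 0.21 in control hearts (adjusted p = 1.1e-05), with a difference of -1.30 ± 0.30 (adjusted p = 0.052). Lgals3 had 0.52 ± 0.25 in CKO hearts (adjusted p = 0.21) and rose by 1.78 ± 0.25 in control hearts (adjusted p = 1.4e-04). The summed FPKM of the 17 macrophage markers in the files was 282 to 663 in CKO TAC hearts, 369 to 577 in control TAC hearts, 321 to 442 in CKO sham hearts and 232 to 480 in control sham hearts, and none was at 0 in any heart.

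The markers of other cell types were counted in the same way, and their counts are not read as a change in a cell type. Of all genes 4.23% were called higher and 4.89% lower in CKO hearts over both times, and 15.3% and 16.1% in control hearts. Over both times 0 of 6 smooth muscle markers were called in CKO hearts, and 1 rose and 1 fell in control hearts. Of 5 endothelial markers 0 were called in CKO hearts and 1 rose in control hearts. Of 6 cardiac muscle markers 3 fell in CKO hearts, and 1 rose and 3 fell in control hearts. The 3 tested atrial markers were not called in either genotype. Of 2 tested valve or cartilage markers 1 fell in CKO hearts, and 1 rose and 1 fell in control hearts. None of these lists had a member with a called difference of response over both times, at 2 weeks or at 4 weeks. Of all 6 valve or cartilage markers, Cytl1 was 1.97 to 15.2 FPKM and Sox9 0.322 to 2.16 FPKM with no heart at 0, and Acan, Hapln1, Col2a1 and Chad were at 0 in 6, 14, 15 and 5 of the 20 hearts. Their part in the Cilp result was not tested.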

How the data were processed

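Messenger RNA of 20 hearts was measured with the miRNeasy Mini and TruSeq Stranded mRNA kits, per the labels' protocols. The authors' deposited values are FPKM per gene, for which the submitters' processing notes name TopHat2 2.1.1, Bowtie2 (no version), Cuffdiff 2.2.1 and the build mm10. FPKM hold no counts, so count models were not used. Steps between low values gave the relative depth: 96.6% of 19622 values of 1782 genes lay within 5% of a whole multiple. The 12589 of 23284 genes whose mean reached 0.5 FPKM were analysed as log2(FPKM + 0.5) with limma 3.58.1 under R 4.3.3, with the trend option, 1 mean for each of 10 groups, 10 residual degrees of freedom and a median of 3.81 prior degrees of freedom, and p was adjusted over all tested genes. Contrasts over both times weight the times equally. The script was tested on simulated data. Figures were drawn with matplotlib 3.10.9 under Python 3.11.15.

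The 10 genes, the related lists and the marker lists were chosen with earlier results of these data known, and neither their counts nor their directions are independent evidence. Named genes are the 10 themselves, the 3 genes most like each, of each related or marker list up to 4 genes with the smallest p for TAC in control hearts, and Wnt5a, Esr1 and Myl7; levels of Dcn, Pdgfra, Tcf21, Csf1r, Cd68, Acta2 and the valve or cartilage markers were added after their values were seen. Alternatives were another pseudocount, filter, scaling, prior or set of groups, and fits without single hearts or without the 5 hearts in which Myl7 reached 10 FPKM. Heart numbers occur once and pair no hearts. The result of 1 related list as a whole is not reported here.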

Additional observations from a re-analysis of the deposited data

Results flagged for a closer look

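The TAC responses of 6 genes differed between the genotypes by limma's test of the difference itself, over both times and at 4 weeks. Over both times the difference of responses, CKO minus control, was -1.81 for Postn, -2.52 for Cilp, -2.36 for Spp1, -0.84 for Fn1, -0.65 for Sparc and -2.47 for Angptl7 on the log2 scale. At 4 weeks it was -2.65 for Postn, -3.57 for Cilp, -3.71 for Spp1, -1.40 for Fn1, -1.07 for Sparc and -3.30 for Angptl7. With no filter on low values 3 of the 6 passed over both times, where Spp1, Fn1 and Sparc lost their calls. With a pseudocount of 0.1 FPKM Spp1 was not called over both times or at 4 weeks. With only the compared groups in the fit, 0 passed at 4 weeks. The calls of Spp1, Fn1 and Sparc over both times also depended on single hearts, as given with each gene. Groups of 2 hearts were too small for a check of single hearts that stand apart.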

How the results depend on the processing

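The 67 called values of the 10 genes, each refitted under the alternatives, gave 1921 refitted values. Of these 1728 kept direction and call, 193 lost the call and 0 reversed. Many refits left out a heart outside the comparison, which leaves the difference unchanged, so the share that was kept does not measure how firm the calls are. Genes removed by a filter were not counted as lost. The 113 uncalled values gave 3180 refitted values, of which 31 were called, and 24 of the 113 changed sign at least once. Each group holds 2 hearts, a lone heart is taken to vary as the other groups do, and the depth behind low genes is unknown. No paired analysis was possible because heart numbers occur once. Without the Myl7 hearts, comparisons with CKO hearts at the end of tamoxifen could not be run.

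With a filter of 3 FPKM, which leaves out the low genes, only 5 of the 10 genes were tested. All 5 were called for TAC in control hearts over both times and at 2 weeks. For CKO against control in TAC hearts 3 of the 5 were called over both times and 0 at 2 weeks. With no filter 3 differences of response passed over both times. Without the 5 Myl7 hearts 1 passed over both times and 2 at 4 weeks, and 0 were called for CKO against control TAC hearts at 2 weeks and 0 for 4 against 2 weeks in control hearts. None of the Myl7 hearts was taken at 4 weeks, so the 4-week differences themselves were unchanged without them. With only the groups compared in the fit, 0 differences of response passed at 4 weeks. Such fits called 2 genes for CKO against control TAC hearts at 2 weeks and 1 at 4 weeks. For 4 against 2 weeks they called 2 in CKO hearts and 1 in control hearts. For CKO against control TAC hearts at 2 weeks a pseudocount of 0.1 FPKM gave 0 and 1 FPKM gave 3. Apart from the filter and the smaller fits, the cause was not tested.

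Without single hearts the difference of responses was called for 3 to 5 genes over both times and 1 to 6 at 4 weeks, CKO against control TAC hearts for 0 to 2 at 2 weeks and 1 to 6 at 4 weeks, sham CKO against control for 0 to 1 (1 without heart 6), 4 against 2 weeks in control hearts for 0 to 3, and sham against the end of tamoxifen for 0 to 1 (1 without heart 15).

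Counts over all genes moved more. TAC in CKO hearts gave 1147 genes over both times and as few as 350 under an alternative, 2424 and as few as 462 at 2 weeks, and 33 and between 0 and 89 at 4 weeks. In control hearts it gave 3956 and as few as 2382, 2998 and as few as 1138 at 2 weeks, and 1603 and as few as 657 at 4 weeks. The difference of responses gave 157 and as few as 24, 2 and between 1 and 6 at 2 weeks, and 94 and as few as 8 at 4 weeks. CKO against control TAC hearts gave 434 and as few as 162, 52 and between 5 and 119 at 2 weeks, and 105 and between 6 and 179 at 4 weeks. For 4 against 2 weeks it was 1876 and as few as 23 in CKO hearts and 272 and as few as 1 in control hearts. Sham against the end of tamoxifen gave 423 and as few as 70, CKO against control 1 and up to 8 in sham hearts and 2 and up to 7 when tamoxifen ended, and the difference of the change with time 1 and between 0 and 21.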
